A study of Mus musculus with 5 samples.

Results

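The genes Lef1, Tcf7, Tcf7l1 and Tcf7l2 encode the mouse TCF/LEF transcription factors, the DNA-binding partners of β-catenin. The β-catenin ChIP-seq peaks deposited for these 4 loci are described here. A peak was counted when its summit, the position of highest tag density, fell in a set mm9 window around the gene. The windows were 130.76 to 130.98 Mb of chromosome 3 for Lef1, 52.01 to 52.15 Mb of chromosome 11 for Tcf7, 72.52 to 72.79 Mb of chromosome 6 for Tcf7l1 and 55.76 to 56.06 Mb of chromosome 19 for Tcf7l2. Of 44750 peaks in the 3 lists, 55 were at these loci: 20 of 16069 in the CHIR99021 anti-FLAG list, 19 of 15947 in the CHIR99021 streptavidin list and 16 of 12734 in the DMSO streptavidin list.

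All 3 ChIP libraries came from the V6.5 line of mouse embryonic stem cells with a Biotin-3xFLAG tag knocked into Ctnnb1, the β-catenin gene, and used 10000000 cells each. The protocol names tagged cells that also carry BirA, the ligase that biotinylates the tag. It names cells with BirA alone too, but no list used here is labelled as theirs. Cells grew in serum and LIF on feeders from DR4 mice, and the cells still floating after a gelatin step were taken as enriched for stem cells. CHIR99021, an inhibitor of the kinase GSK3, was given at 3 µM per the sample labels, while the extraction text gives 3 mM. The time is 16 hours in the sample protocols and 24 hours in the series text. DMSO was the vehicle. Anti-FLAG captured the epitope and streptavidin the biotin. The label of the DMSO library gives streptavidin, although its run was named for FLAG. Every group held 1 library, so no value has a replicate error and no test was possible. All intervals below are 95% intervals that cover counting error only.

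TCF/LEF factors bind DNA through an HMG box and recruit β-catenin through their N-terminus. When Wnt signalling or inhibition of GSK3 lets β-catenin accumulate, the complex can activate transcription, and without β-catenin the factors can bind TLE co-repressors instead. Lef1 is a classic Wnt target gene, Tcf7 encodes TCF1, known as an activator and for its role in T cells, and Tcf7l1 encodes the main repressive member in embryonic stem cells. Tcf7l2 encodes TCF4, known from the intestinal crypt.

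The letters under the peaks could not be read, because no mm9 genome was used. Promoters from RefSeq, on GRCm38.p6, were read instead, and all 4 genes had entries, 9 promoters in all. The TCF/LEF consensus forms CTTTGAA and CTTTGAT, searched on both strands over 300 bases, were found in 0 of the 9, while 8.65% of 32851 mouse promoters hold either form. So few promoters cannot be told from that share, and the first Lef1 entries overlap in most of their bases. Most of the 9 also had more GC than the median of all promoters, 52.7%. The shorter core CTTTG, which both forms contain, was then searched in the 250 bases before each gene's outermost RefSeq start. It occurred once each at Lef1, Tcf7l1 and Tcf7l2, while 48.6% of all promoters hold it on either strand. It was not in the window of Tcf7. That window holds protein-coding letters from an ATG to its end, so the lack says nothing of the Tcf7 promoter. The sequences of Lef1 and Tcf7l2 are shown because these loci held the strongest peaks. They run 5′ to 3′ toward the gene, with the core, or its reverse complement, in capitals, and its first base counted from the start site. A match is a description of letters and not a bound site, and GRCm38.p6 positions cannot be set beside the mm9 peaks.
Lef1, GRCm38.p6 chr3:131110047-131110296, plus strand, core from base -161: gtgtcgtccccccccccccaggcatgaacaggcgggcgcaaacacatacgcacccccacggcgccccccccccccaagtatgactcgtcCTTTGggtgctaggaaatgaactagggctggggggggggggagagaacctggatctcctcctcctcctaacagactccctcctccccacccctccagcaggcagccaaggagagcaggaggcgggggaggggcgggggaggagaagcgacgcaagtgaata
Tcf7l2, GRCm38.p6 chr19:55741560-55741809, plus strand, reverse complement of the core from base -111: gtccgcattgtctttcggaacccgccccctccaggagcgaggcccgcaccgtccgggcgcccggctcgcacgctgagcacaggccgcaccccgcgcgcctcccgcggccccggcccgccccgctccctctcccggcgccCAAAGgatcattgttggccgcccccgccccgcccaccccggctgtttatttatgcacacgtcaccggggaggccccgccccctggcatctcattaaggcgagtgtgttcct

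The lists differ in ways that bear on every value. Anti-FLAG had 16100920 and CHIR99021 streptavidin 11934863 unique tags, so tags are also given as RPM, the tags of a peak scaled to the unique tags of its library. For DMSO the header gives no depth. That list was called with a MACS fragment size of 30 bp, against 185 and 214 bp, so its short peaks are set beside the others by position only. MACS, the authors' peak caller, gives each peak a p score, its p-value as −log10 multiplied by 10, and fold enrichment is its ratio of tags over the local background. Both are the authors' values for single peaks. Merging peaks that overlap, whatever their list, left 36 regions at the 4 loci. Peaks of both CHIR99021 lists lay in 15, called shared regions here, while 4 held anti-FLAG alone, 4 held CHIR99021 streptavidin alone and 13 held DMSO alone.

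Peaks were dense at Lef1 and Tcf7l1. Lef1 held 8 anti-FLAG, 10 CHIR99021 streptavidin and 5 DMSO peaks in 220 kb. Its anti-FLAG density of 36.4 peaks per Mb (exact Poisson interval 15.7 to 71.7) stood against 6.25 per Mb for the whole list. Tcf7l1 held 8, 6 and 6 peaks in 270 kb, or 29.6 anti-FLAG peaks per Mb (12.8 to 58.4). Tcf7l2 held 3, 2 and 3 in 300 kb, and Tcf7 held 1, 1 and 2 in 140 kb. The anti-FLAG densities of Tcf7l2 (2.06 to 29.2 per Mb) and Tcf7 (0.181 to 39.8 per Mb) had intervals that include the density of the whole list.

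**Figure D1:**
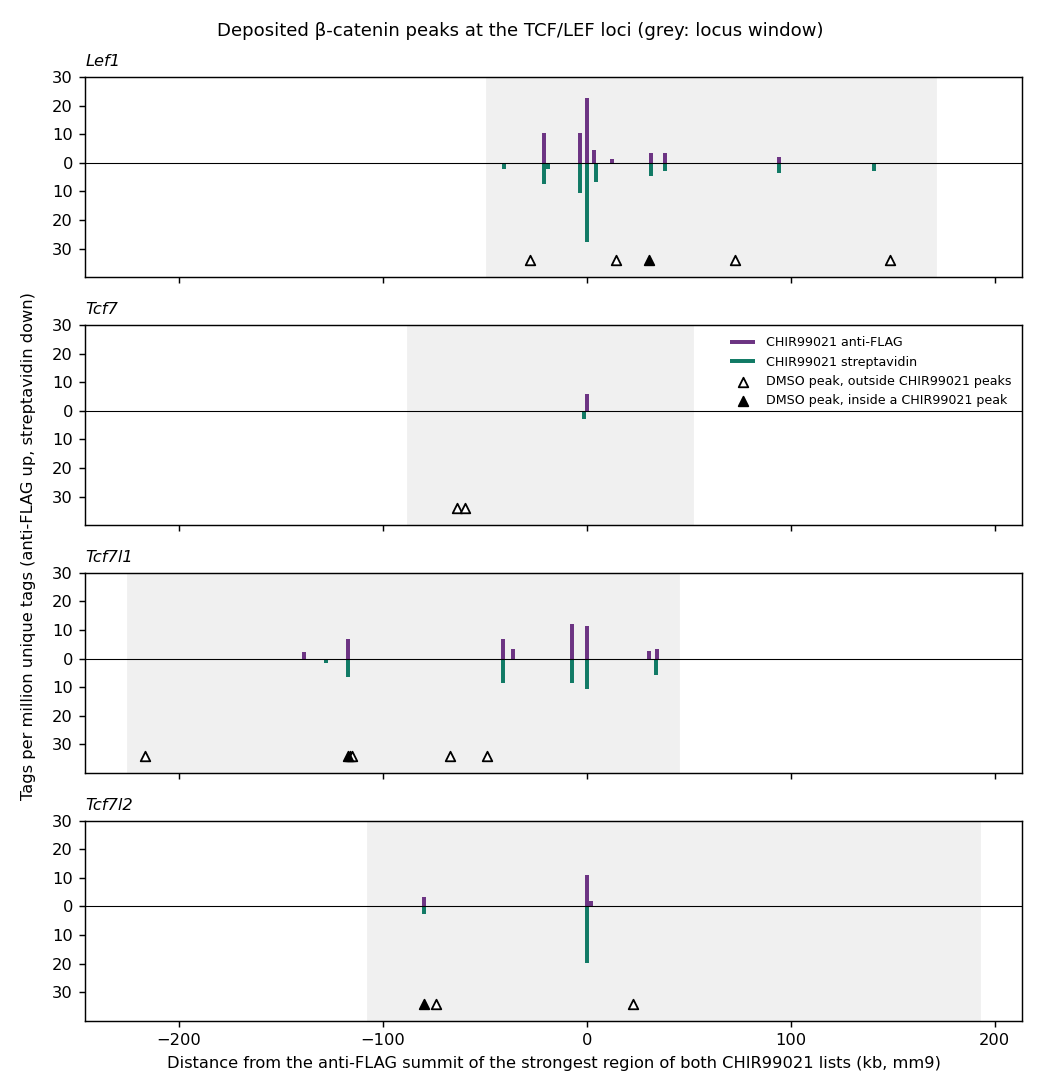
Each vertical line is a CHIR99021 peak at its summit, with anti-FLAG RPM (tags scaled by unique tags) upward and streptavidin RPM downward. The horizontal axis is the distance in kb from the anti-FLAG summit of the strongest shared region at that locus, and triangles mark DMSO peaks, filled where they lie in a CHIR99021 peak. Lef1 and Tcf7l1 carry rows of paired lines and Tcf7 a single pair, and 3 of the 16 triangles are filled.

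Lef1 held 7 shared regions. The strongest, chr3:130807632-130811413, had 365 anti-FLAG tags (exact Poisson interval 329 to 404) and 329 streptavidin tags (294 to 367), or 22.7 and 27.6 RPM. By summed RPM it ranked 88 of the 9113 shared regions of the genome. Its summits lay 10 bp apart, and its p scores were 1284.35 and 1301.69. Both captures thus placed their strongest Lef1 peak at the same position, with fold enrichments of 29.85 and 38.66.

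This region stood in a row. Before it, chr3:130786759-130788778 had 170 anti-FLAG and 90 streptavidin tags, and chr3:130804740-130805996 had 168 and 127, with summits 12 bp apart. After it, chr3:130811953-130814256 had 72 and 78 tags, but its summits lay 816 bp apart, against a median of 41 bp over all shared regions of the genome. These 4 regions fell within 27.5 kb.

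Weaker regions followed. At chr3:130839152-130840755 there were 57 anti-FLAG and 54 streptavidin tags, and at chr3:130845896-130847641 there were 56 and 35. The last, chr3:130902378-130903545, lay 55.8 kb further on with 32 and 43 tags. Neighbouring summits among the first 6 regions were 3.60 to 27.6 kb apart, while the median spacing of neighbouring shared regions in the genome was 131 kb. Of the 15 shared regions of the 4 loci, 5 had at least 4 others within 50 kb, and all 5 were at Lef1. These 5 lie side by side and count each other, so they form a single cluster and not 5 separate cases. In the genome 3.29% of shared regions had as many, and 51.1% had none.

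Peaks of a single CHIR99021 list at Lef1 were small. Anti-FLAG alone had 1, of 23 tags, at chr3:130820700-130821281. CHIR99021 streptavidin alone had 3, of which chr3:130949209-130950302 had the most tags, 33, and the other two 26 each. Their p scores ran from 53.84 to 64.62, below the medians of 84.86 and 80.79 of the whole lists.

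At Tcf7 the lists shared a single region, chr11:52096038-52098316. It held 94 anti-FLAG tags (76.0 to 115) and 35 streptavidin tags (24.4 to 48.7), or 5.84 and 2.93 RPM. Although the peaks share bases, their summits lay 1335 bp apart, and only 32 of the 9113 (0.351%) had a gap at least as wide. The anti-FLAG peak had a p score of 159.99 and the streptavidin peak one of 69.74. Whether both captures mark the same site at Tcf7 cannot be told from these intervals.

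Tcf7l1, the repressor gene, held 5 shared regions of more even strength. Its neighbouring regions chr6:72736639-72739983 and chr6:72743585-72745908 had the most tags, 192 and 183 by anti-FLAG and 101 and 125 by streptavidin, with anti-FLAG summits 7.52 kb apart. Next came chr6:72703450-72705577 with 112 and 100 tags. This region had the highest streptavidin fold enrichment of the locus, 22.25, against 10.73 by anti-FLAG.

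The outer regions of Tcf7l1 were weaker. At chr6:72626184-72628383, 76.3 kb from the next shared region, there were 111 anti-FLAG and 75 streptavidin tags. Its fold enrichments of 4.88 and 7.39 were below the medians of 8.13 and 8.56 of the whole lists. At chr6:72778392-72779761 there were 56 and 68 tags. Anti-FLAG alone had 3 peaks, of which chr6:72708086-72709057 had the most tags, 54, and a p score of 100.85. CHIR99021 streptavidin alone had 1, of 19 tags, at chr6:72616870-72617483.

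Tcf7l2 held 2 shared regions, 79.9 kb apart. The stronger, chr19:55866541-55869723, had 208 anti-FLAG tags in 2 peaks of 176 and 32 tags, and 238 streptavidin tags in 1 peak. It ranked 284 of 9113 by summed RPM. Its leading peaks had the highest fold enrichments at the 4 loci in either CHIR99021 list, 44.71 and 58.30, and p scores of 1226.70 and 1312.24, with summits 17 bp apart. The weaker region, chr19:55786757-55787927, had 54 anti-FLAG and 32 streptavidin tags. No CHIR99021 peak of a single list lay in the Tcf7l2 or Tcf7 window.

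The first comparison asked whether both captures of the tagged protein found the same sites after CHIR99021. At the 4 loci 16 of 20 anti-FLAG peaks (80.0%, exact interval 56.3 to 94.3%) shared at least 1 bp with a streptavidin peak, against 57.6% of the whole list. In the other direction 15 of 19 did (78.9%, 54.4 to 93.9%), against 57.8%. The first interval includes the share of the whole list, and so does the second. Peaks at these loci also held more tags than their lists, with medians of 64.5 against 39 by anti-FLAG and 68 against 34 by streptavidin. Median p scores were higher too, 100.0 against 84.86 and 112.21 against 80.79. Median fold enrichments were instead lower, 7.65 against 8.13 and 7.39 against 8.56. The part of peak strength in the shares was not tested.

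**Figure D2:**
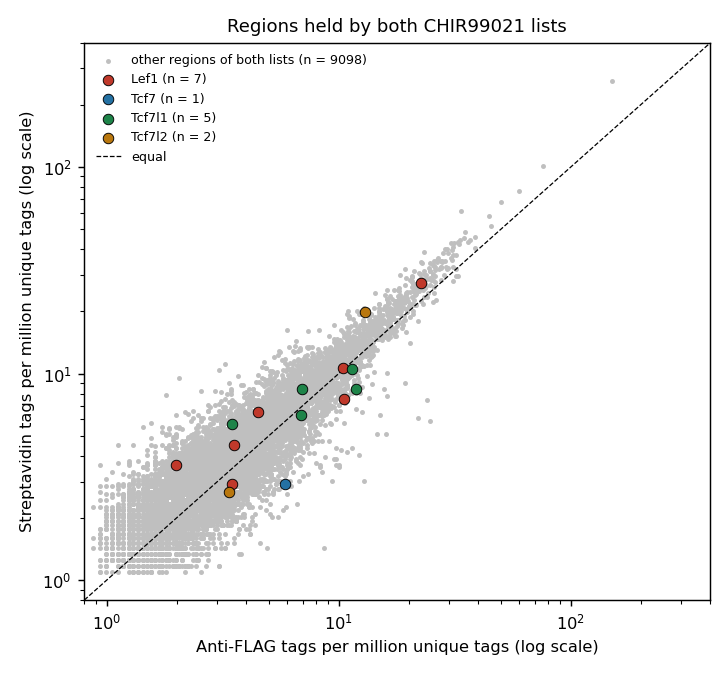
Each point is a shared region, with anti-FLAG RPM on the horizontal and streptavidin RPM on the vertical axis, both on log scales, and a dashed line where they are equal. The 15 coloured regions of the 4 loci spread over the grey cloud of the other shared regions, with the leading Lef1 region at 22.7 and 27.6 and the Tcf7 region, at 5.84 and 2.93, under the line.

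Summed over the 15 shared regions, anti-FLAG had 1930 tags in 27004 bp and streptavidin 1530 tags in 24927 bp. In RPM the streptavidin to anti-FLAG ratio was 1.07 (0.999 to 1.14, from the exact binomial interval), and summed over all shared regions of the genome it was 1.14. By locus it was 1.11 (1.01 to 1.22) at Lef1, 0.967 (0.857 to 1.09) at Tcf7l1, 1.39 (1.17 to 1.65) at Tcf7l2 and 0.502 (0.331 to 0.748) at Tcf7. These intervals pool the tags of a locus and leave out the spread between its regions. Those of Tcf7l1 and Tcf7l2 did not overlap. Yet single regions ran from 0.710 to 1.64 at Tcf7l1 and had 0.799 and 1.54 at Tcf7l2. A difference between these loci is therefore not shown. The interval of Tcf7 lay below those of the other loci, but it rests on a single region with summits 1335 bp apart. Its tags come from peaks that may not mark the same site.

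Region by region, 11 of the 15 intervals held 1.14, the median ratio of all shared regions, and 83.1% of all 9113 intervals did. Of the 15 ratios themselves, 4 lay in the middle 50% of all ratios. Intervals below the median numbered 3 at the 4 loci and 8.43% in the genome. The 3 were chr3:130786759-130788778 at Lef1 with 0.714 (0.547 to 0.927), chr6:72736639-72739983 at Tcf7l1 with 0.710 (0.552 to 0.908) and the Tcf7 region. In each of these the anti-FLAG peak was the longer, with 2020 against 1163 bp, 3345 against 1745 bp and 1538 against 1082 bp. The strong Tcf7l2 region lay above the median, with 1.54 (1.28 to 1.87), and there streptavidin covered 3183 bp against 1979 bp for anti-FLAG. Over all 15, the ratio was below the median in 6 of the 7 regions with the longer anti-FLAG peak and in 2 of the 8 with the longer streptavidin peak. The exception among the 7 was chr6:72703450-72705577 at Tcf7l1, with 2118 against 1257 bp and a ratio above the median (interval 0.911 to 1.59). The same counts were not made over all 9113 shared regions, so they show no trait of these loci. Each list's tags were counted within its own peaks, and the part of peak length in these ratios was not tested.

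**Figure D3:**
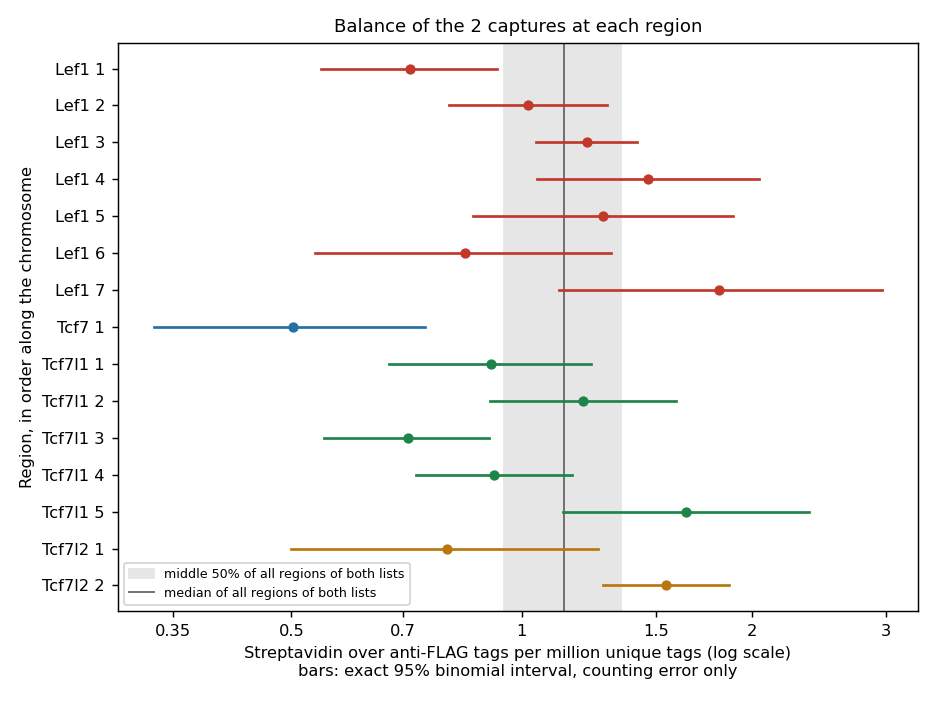
Points give the streptavidin over anti-FLAG ratio of RPM, on a log axis, at each of the 15 shared regions of the 4 loci, numbered along the chromosome within a locus, and bars give exact binomial 95% intervals. The grey line and band mark the median and the middle 50% of all 9113 shared regions. Of the bars, 11 hold the median, 3 lie below it and 1 lies above it.

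The second comparison set CHIR99021 beside DMSO. DMSO peaks were frequent at these loci but small, as in the whole DMSO list, and none lay in the regions with the most tags. The 4 windows held 17.2 DMSO peaks per Mb (9.83 to 27.9), against 4.95 per Mb in the whole list. Of the 16 peaks 11 held 6 tags, the smallest number in the list, as did 9083 of the 12734 in the whole list. The median was 6 tags in both. The largest of the 16 held 11 tags, and their p scores ran from 50.31 to 78.62. Among the 16, 3 shared bases with a CHIR99021 peak (18.8%, exact interval 4.05 to 45.6%), near the 15.0% of the whole list.

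Those 3 lay in weaker shared regions. At Lef1 a DMSO peak of 7 tags lay in chr3:130839152-130840755, within the streptavidin peak but outside the anti-FLAG peak, 708 bp from the anti-FLAG summit. At Tcf7l1 a DMSO peak of 8 tags lay in the outer region chr6:72626184-72628383, with its summit 7 bp from the anti-FLAG summit. At Tcf7l2 the peak of 11 tags lay in chr19:55786757-55787927, 66 bp from the anti-FLAG summit. Of the 3, the Tcf7l1 peak alone spanned a CHIR99021 summit, that of anti-FLAG. Of the 11 DMSO peaks of 6 tags, 0 lay in a CHIR99021 peak, and in the whole list 7.06% of such peaks did.

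Among the 15 shared regions 3 held a DMSO peak (20%, 4.33 to 48.1%), against 12.9% of all 9113. The 7 with the highest summed RPM held none: 3 at Lef1, 3 at Tcf7l1 and 1 at Tcf7l2. In the genome, the share of regions with a DMSO peak fell with rank. Of the 88 shared regions with at least the summed tags of the leading Lef1 region, 73 (83.0%) held a DMSO peak, and its own nearest DMSO summit lay 14047 bp away. Of the 284 at least as strong as the leading Tcf7l2 region, 207 (72.9%) did, and its nearest DMSO summit lay 22642 bp away. Those shares count every stronger region. Among the 100 regions nearest in rank, 50 on each side, 79 held a DMSO peak around the leading Lef1 region and 61 around that of Tcf7l2. Around the next 4 it was 32 to 37, and around the seventh, chr6:72703450-72705577 at Tcf7l1, it was 14. DMSO peaks were thus the more common state only around the leading regions of Lef1 and Tcf7l2 among the 7.

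Ranking by p score placed 10 shared regions of the 4 loci before the first with a DMSO peak. By that ranking the share with a DMSO peak among regions at least as strong was 81.1% for the leading Lef1 region and 80.9% for the leading Tcf7l2 region. For the rest of the 10 it ran from 49.9% down to 18.1%, the value of the Tcf7 region at rank 5624. Shares among the regions nearest in rank were not taken for the p score. The lack of DMSO peaks in the leading regions was noticed in the data and was not tested. At an unknown DMSO depth a region without a DMSO peak has no call, and lower binding without CHIR99021 is not shown there.

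**Figure D4:**
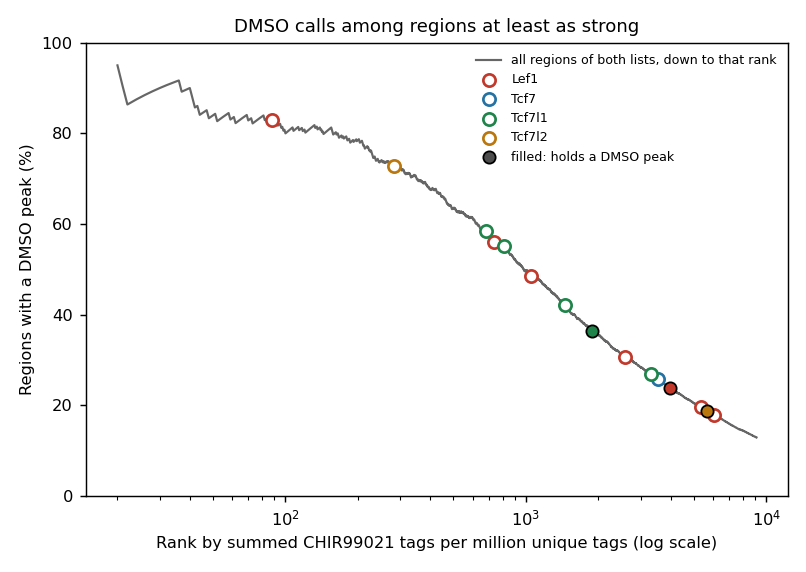
The line gives the percentage of shared regions with a DMSO peak among those at least as strong, against the rank by summed RPM. Circles place the 15 shared regions of the 4 loci, filled where the region holds a DMSO peak. The 7 strongest, from rank 88 to rank 1451, are open, and the first filled circle stands at rank 1887.

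The other 13 DMSO peaks lay outside CHIR99021 peaks. Lef1 had 4, each of 6 tags, and Tcf7l1 had 5, of 6 to 8 tags. Tcf7 had 2, of 6 and 8 tags, and Tcf7l2 had 2 of 6 tags. Just outside the windows, a DMSO peak of 10 tags lay 1149 bp beyond that of Tcf7, 53287 bp from the anti-FLAG summit of the shared region there, and a streptavidin peak of 52 tags 1422 bp beyond that of Tcf7l1. Just inside, a streptavidin peak of 26 tags at Lef1 lay 8191 bp from the edge and a DMSO peak of 6 tags at Tcf7l1 lay 8417 bp from it.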

How the data were processed

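Peaks were called by the authors with MACS on ELAND-format alignments, each ChIP library against 1 input library at a p-value cutoff of 1.00e-05, per the file headers. Both CHIR99021 headers give the same input counts, 17758366 unique tags of 33912075. The calls and fold enrichments of both captures thus share an input and are not independent of each other. Per the submitters' processing notes the genome was mm9, and the versions of MACS and the aligner are not given in the sources used here. The deposited tables hold a whole-number tag count per peak, a p score, a fold ratio and an FDR in percent, per the file headers. The deposited 400 bp windows for DMSO served as an alternative only.

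Positions are 1-based. Peaks sharing at least 1 bp were merged, and the tags of a region were summed per list. Shares carry exact Clopper-Pearson intervals and tag counts exact Poisson intervals, both at 95%. Ratios of the captures took theirs from the binomial share of raw tags. Regions were named by a rule: every shared region up to 10 per locus, and the peak with the most tags among those of a single CHIR99021 list. The windows, genes and rules were chosen with earlier results of these data known, and the search for CTTTG was added after the longer forms had been searched. The shares among 100 regions nearest in rank were added after seeing the data too. Exons and introns were not assigned, and a list of β-catenin cofactor genes and the proteins were not analysed here, because no mm9 annotation or protein table was used. In GRCm38.p6 the neighbouring protein-coding genes are Rpl34 and Hadh for Lef1, Skp1 and Vdac1 for Tcf7, Tgoln1 and Kcmf1 for Tcf7l1, and Vti1a and Habp2 for Tcf7l2. Alternatives changed windows, thresholds, scaling and overlap rules. Merging and overlap were tested on simulated data. Scripts ran in Python 3.11.15 with scipy 1.17.1 for intervals, pandas 2.3.3 and numpy 2.4.6 for tables, and matplotlib 3.10.9 for figures.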

Additional observations from a re-analysis of the deposited data

How the results depend on the processing

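Widening the windows by 50 kb or narrowing them by 20 kb left 15 and 14 shared regions, against 15. A p score of at least 100 left 10 peaks by anti-FLAG, 10 by CHIR99021 streptavidin and 0 by DMSO, 7 shared regions and 0 with a DMSO peak. Fold enrichment of at least 10 left 7 anti-FLAG, 8 streptavidin and 15 DMSO peaks, 7 shared regions and 0 with a DMSO peak. The regions with a DMSO peak were lost because their CHIR99021 peaks had folds of 4.88 to 8.29. This setting moved the anti-FLAG share of scaled tags from 48.3% to 45.9%. An FDR of at most 1%, chosen after seeing the data, left 11 streptavidin and 0 DMSO peaks, 9 shared regions, 0 with a DMSO peak and a share of 50.2%. It removed the leading regions of Lef1 and Tcf7l2, whose anti-FLAG peaks had FDRs of 1.34% and 1.22%. With 50% reciprocal overlap 0 shared regions held a DMSO peak, since DMSO peaks at the loci were at most 115 bp long. With DMSO peaks of at least 10 tags, 1 peak and 1 such region were left. That peak, of 11 tags at Tcf7l2, had an FDR of 7.28%, the highest of the DMSO peaks at the loci. An FDR of at most 5% removed it and left 15 DMSO peaks and 2 shared regions with a DMSO peak. The shared region of Tcf7 was lost at a p score of 100, a fold of 10, an FDR of 1%, reciprocal overlap and summits within 200 bp or, chosen after seeing the data, 1000 bp. In all, 38 of 56 alternative values of the counts over the 4 loci and the share stayed within bounds and 18 moved, where the bounds were 1.5 times the main count and, for the share, its interval of 46.6 to 50.0%. No paired analysis was possible because no group has a second library. What can be said of regions without a DMSO peak is limited, as the depth of that library is unknown.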
